A study of Schizosaccharomyces pombe with 127 samples.

Results

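Serine supplies glycine and one-carbon units to the fission yeast *Schizosaccharomyces pombe*, and 5 genes around its synthesis and breakdown were followed in a panel of gene deletion strains: ser3, gcv1, gcv2, gcv3 and shm2, of 4929 genes and other features measured. They were chosen by name and with their values in these arrays known, so their levels, their changes on starvation and their differences in the atg1 and vps15 deletion strains are given as description, without a test. Each gene was read by 2 probes, named through the annotation of the array platform: ser3 is SPCC364.07, gcv1 SPAC31G5.14, gcv2 SPAC13G6.06C, gcv3 SPBP19A11.01 and shm2 SPAC18G6.04C.

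Ser3 is phosphoglycerate dehydrogenase, which opens the route from a glycolytic intermediate to serine. Serine hydroxymethyltransferase, the product of shm2 and of its paralog shm1, turns serine into glycine and passes the released carbon to folate. The glycine cleavage system, with the T protein (Gcv1), the P protein (Gcv2) and the H protein (Gcv3), breaks glycine down in mitochondria and yields ammonium, carbon dioxide and a further one-carbon unit, and these units feed the synthesis of purines and methionine.

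The arrays compared strains starved of nitrogen for 60 min (62 deletion strains and 1 wild type) with strains growing in minimal medium with nitrogen, called 0 min (63 deletion strains and 1 wild type). Every strain at a given time was 1 two-colour array, with strain RNA in Cy5 and RNA from a wild-type pool, common to the series, in Cy3. Most deletions removed a protein kinase. The atf1, cyr1, cgs1 and rst2 strains carried deletions of other genes, and the labels used here name no further allele, marker or parent. The cultures grew at 30 °C, and 62 deletion strains had arrays at both times. Levels are log2 ratios of a strain to the pool, centred on the array median, and a change is the level at 60 min minus the level at 0 min in 1 strain. There was no repeat array of any strain at a given time, so the spread quoted is the spread between strains, which holds both strain differences and array error.

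Some labels limit the comparison. The wild-type array at 60 min is called wild type in its title but a kinase deletion in other fields, and 6 strains (byr1, atf1, ppk22, cdk11, ppk33 and srb10) had 60 min labels that were in doubt. Many strains are labelled by a locus name or an older symbol and are called here by the current gene symbol: atg1 is labelled CC63_08C, vps15 BC119_07, gad8 CC24B10_07, ppk22 BC1861_09, cdk11 BC18H10_15, ppk33 CC162_10, srb10 prk1 and pmk1 spm1. The deleted gene checks the direction of the ratios. The transcripts of atg1, vps15, gcn2, gad8, sck2 and psk1 were each the lowest of 62 strains in their own deletion at both times. The hri1 transcript was not: in the strain labelled hri1 it ranked 29 from the lowest at 60 min and 8 from the lowest at 0 min. Log2 ratios spread more widely at 60 min (mean SD over probes 0.98) than at 0 min (0.36). Because the RNA came from whole cultures, fewer cells of a kind and less RNA per cell cannot be told apart.

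The gene of the first step, ser3, was lower at 60 min than at 0 min in all 62 deletion strains. At 60 min its level was -3.58 ± 0.71 (SD, n = 62 strains), with a lowest value of -4.60, a median of -3.67 and a highest of -0.72. At 0 min it was 0.05 ± 0.42 (SD, n = 62), with a lowest value of -1.31, a median of 0.08 and a highest of 1.00. The times did not overlap except through the highest 60 min values, of vps15 and atg1, which lay above the lowest 0 min value, that of cyr1. The wild type had -3.28 at 60 min and -0.29 at 0 min, from arrays in different groups by title number, as for every wild-type change given here. The change of ser3 over the deletion strains was -3.63 ± 0.70, 12.4-fold on the linear scale, and the change in wild type was -2.99.

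Among all 4929 features ser3 had the lowest mean level at 60 min and the sixth lowest mean change. It also varied between strains more than most: the SD of its change exceeded that of 97.8% of features, for which the median SD was 0.29. The change was below -3 in 55 strains. It was deepest in cmk1 (-4.55), a calmodulin-dependent kinase strain, and in pmk1 (-4.47; labelled spm1) and wis1 (-4.46), strains without a MAP kinase and a MAP kinase kinase. Between neighbours in the order of strains the median gap was 0.02, against a probe error of 0.17 (the SD of 1 probe's deviation from the mean of the pair), so most neighbours could not be told apart. The gap between the vps15 strain and the next one down, 1.38, was the largest.

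**Figure D1:**
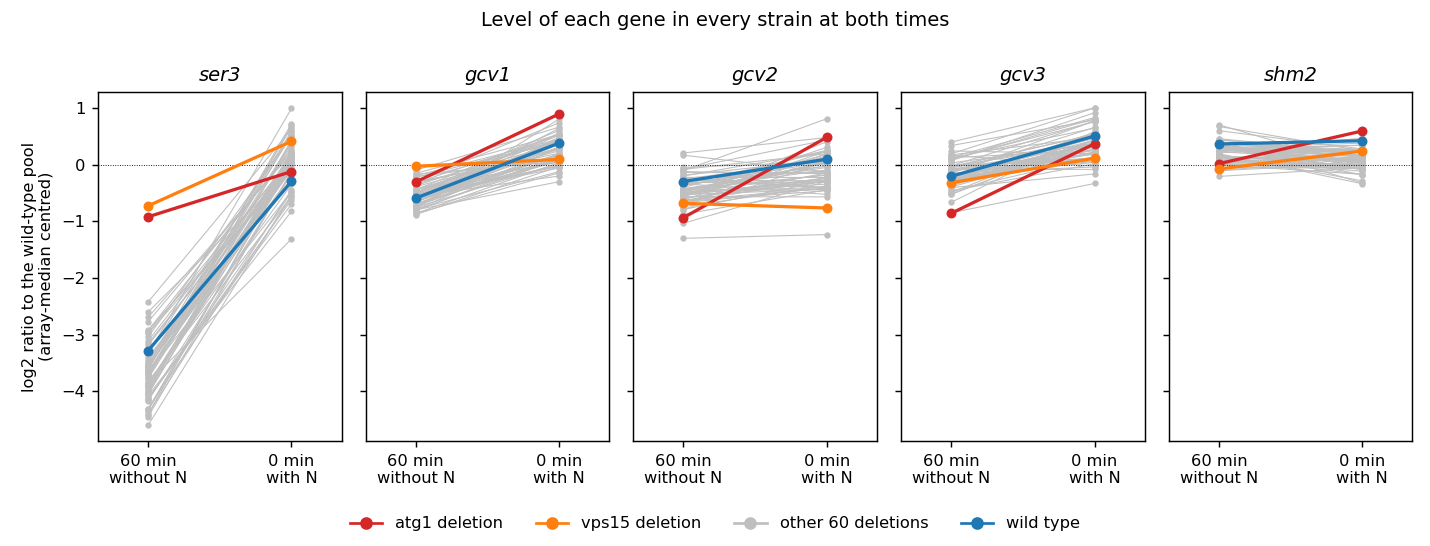
Level of each of the 5 genes (log2 ratio to the wild-type pool, array-median centred) at 60 min without nitrogen, on the left of each panel, and at 0 min, on the right, with 1 line per strain. The ser3 lines of atg1 (-0.92 at 60 min) and vps15 (-0.72 at 60 min) stand above all others at 60 min, while at 0 min they lie among them.

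The glycine cleavage genes were lower at 60 min too, by far less. The T protein gene gcv1 was at -0.53 ± 0.21 at 60 min (SD, n = 62), with a lowest value of -0.88, a median of -0.56 and a highest of -0.02. At 0 min it was at 0.27 ± 0.25, with a lowest value of -0.30, a median of 0.28 and a highest of 0.90. Its change was -0.80 ± 0.26 and negative in all 62 strains, against -0.97 in wild type. The change was deepest in srk1 (-1.58), a strain lacking a MAP kinase-activated kinase, and shallowest in vps15 (-0.12).

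The H protein gene gcv3 came next. Its level was -0.17 ± 0.25 at 60 min, with a lowest value of -0.86, a median of -0.20 and a highest of 0.40. At 0 min its level was 0.36 ± 0.29, with a lowest value of -0.33, a median of 0.36 and a highest of 1.01. Its levels at the 2 times overlapped across strains, yet within strains its change was negative in 60 of 62, with a mean of -0.54 ± 0.29, against -0.71 in wild type. The exceptions were ppk25 (0.19) and atf1 (0.05). The wild-type change of gcv3 averages probes at -0.18 and -1.24. The tea5 strain had the highest gcv3 level at both times.

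The P protein gene gcv2, which encodes the glycine decarboxylase itself, changed least of the 3. Its level was -0.46 ± 0.27 at 60 min, with a lowest value of -1.30, a median of -0.49 and a highest of 0.21. At 0 min its level was -0.11 ± 0.34, with a lowest value of -1.23, a median of -0.14 and a highest of 0.82. Its change, -0.35 ± 0.33, was about as large as its spread between strains and was negative in 52 of 62, with -0.40 in wild type. Under quantile normalization, which gives every array the same distribution, the mean change of gcv2 was -0.08 and that of gcv3 -0.84, so their order was the same and their sizes differed. The lsk1 strain, without a kinase of the RNA polymerase II tail, had the lowest gcv2 level at both times, -1.30 at 60 min and -1.23 at 0 min.

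The serine hydroxymethyltransferase gene shm2 was slightly higher at 60 min. Its level was 0.22 ± 0.19 at 60 min, with a lowest value of -0.20, a median of 0.27 and a highest of 0.71. At 0 min it was 0.09 ± 0.18, with a lowest value of -0.33, a median of 0.09 and a highest of 0.60. Its change was 0.13 ± 0.23, positive in 47 of 62 strains and smaller than its spread, and -0.06 in wild type. The wild-type value averages probes of opposite sign, -0.46 and 0.34. Under quantile normalization the mean change of shm2 over the 62 strains was smaller, at 0.03. The 2 shm2 probes ranked the strains differently: their correlation over 62 strains was 0.02 for the level at 60 min, 0.13 at 0 min and 0.37 for the change. Differences between strains in shm2 therefore rest on probes that did not move together. For comparison, the probe correlation of the change was 0.90 for ser3, 0.73 for gcv1, 0.77 for gcv2 and 0.54 for gcv3, with a median of 0.50 over all features.

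Within a strain ser3 and shm2 mostly stood at the ends of the 5 changes, while the order of the glycine cleavage genes was less regular. The change of shm2 was the highest of the 5 in 58 strains. The change of ser3 was the deepest in 61 of 62 strains, the exception being atg1. It lay below that of gcv1 by a mean difference of -2.83 ± 0.69 (SD over strains). The change of gcv1 lay below that of gcv3 in 47 strains, with a mean difference of -0.26 ± 0.32, and that of gcv3 below that of gcv2 in 45, with -0.19 ± 0.29. Both of these differences are smaller than their spread between strains. Under quantile normalization the mean changes of gcv1 (-0.85) and gcv3 (-0.84) were nearly equal. The change of gcv2 lay below that of shm2 in 59 strains, with a mean difference of -0.49 ± 0.30. All 3 glycine cleavage genes were lower at 60 min in 51 strains, and all 5 genes in 14.

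How the genes varied together over strains differed between the measures. Over 62 strains the Pearson correlation of the changes was 0.62 between gcv1 and gcv2, 0.55 between gcv2 and gcv3 and 0.32 between gcv1 and gcv3. The changes of ser3 correlated with those of gcv1 at 0.23, of gcv2 at -0.02 and of gcv3 at -0.05. Without atg1 and vps15 these were 0.27 for gcv1, 0.19 for gcv2 and 0.14 for gcv3. The glycine cleavage pairs were then at 0.59 for gcv1 and gcv2, 0.49 for gcv2 and gcv3 and 0.28 for gcv1 and gcv3. For the level at 60 min, ser3 and gcv1 correlated at 0.58, and at 0.53 without atg1 and vps15. There the glycine cleavage genes correlated less with each other, at 0.24 for gcv1 and gcv2, 0.06 for gcv2 and gcv3 and 0.01 for gcv1 and gcv3. The correlation of the ser3 and shm2 changes, -0.43, was -0.17 without these 2 strains. These are descriptions: all strains share 1 reference pool, and the genes of an array share its error. A strain's level at 0 min told little of its level at 60 min, with correlations from 0.20 (shm2) to 0.43 (gcv2).

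Beside the 2 autophagy strains, adenylate cyclase and a few other deletions stood at the ends of the range. The cyr1 strain, without adenylate cyclase, had the lowest 0 min level of ser3 (-1.31), gcv1 (-0.30) and gcv3 (-0.33), and its ser3 change was -2.54. Its array at 0 min also spread more widely (SD over probes 0.55) than the median array at that time (0.35). The ppk22 strain, one of those with a doubted label, had a ser3 change of -2.52. Both strains also had a small response as a whole: regressed on the mean change of 801 strongly changing genes, their slopes were 0.66, the lowest of 62 strains, against 1.02 in wild type. The part of this overall response in their ser3 values was not tested. Over 62 strains the change of ser3 correlated with that slope at -0.39, and that of gcv1 at -0.34. The ppk25 strain had the highest change of gcv2 (0.30) and gcv3 (0.19) and the second highest of shm2 (0.74).

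By the number in their titles the arrays were split here into 3 groups, called runs, with 56, 3 and 3 deletion strains. The labels do not say that these groups were separate batches. The wild-type array at 60 min belongs to the first run and that at 0 min to the second, so the changes and the slope of the wild type cross runs. The mean change of ser3 was -3.60 in the first, -4.16 in the second and -3.61 in the third, and gcv1, gcv2 and gcv3 had negative and shm2 positive mean changes in each.

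**Figure D2:**
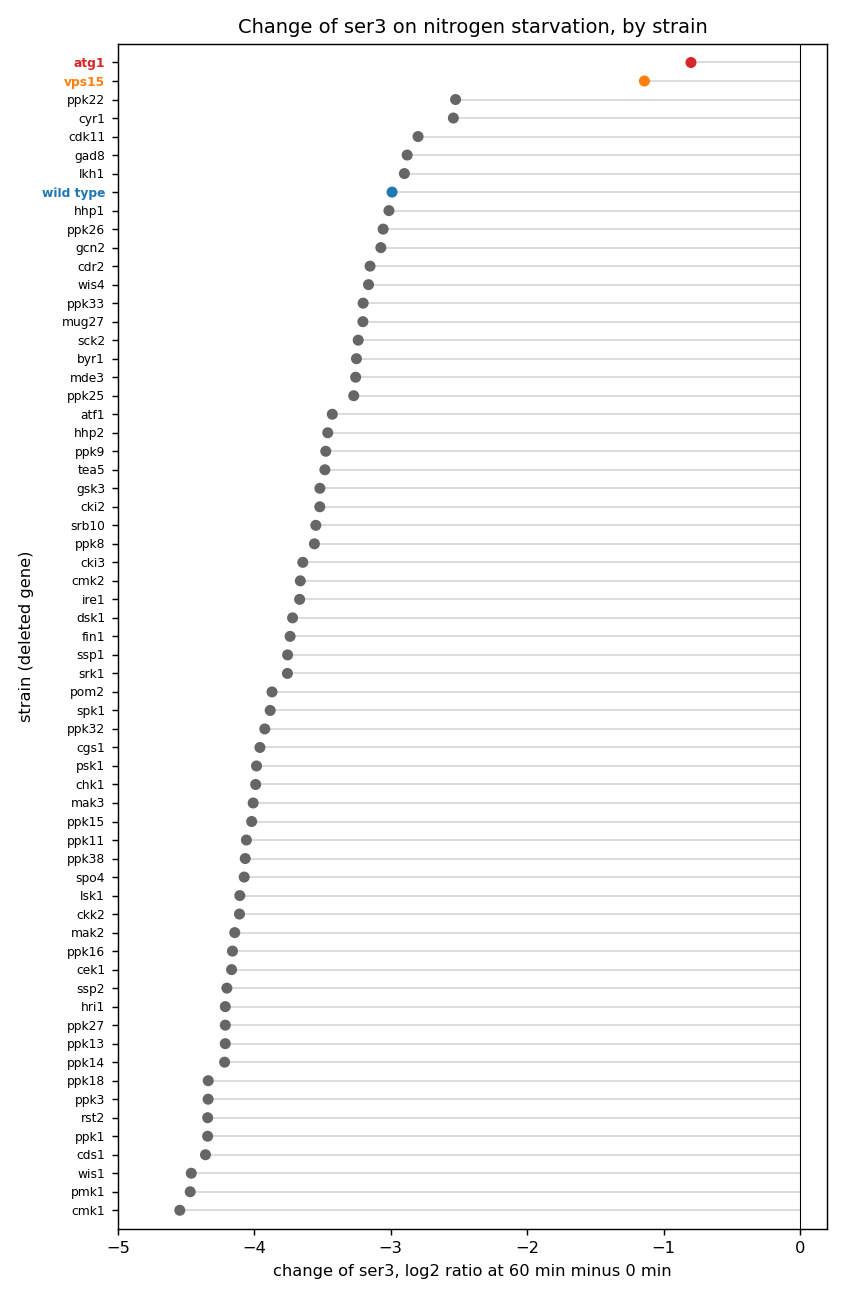
Change of ser3 (log2, 60 min minus 0 min) in each of 62 deletion strains and in wild type, ordered by size, with 1 point per strain. The atg1 strain (-0.80) and the vps15 strain (-1.14) are separated from the next strain, ppk22 (-2.52), while wild type (-2.99) lies within the upper range of the other strains.

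In the strains without Atg1, the kinase that starts autophagy, or Vps15, a subunit of the Vps34 lipid kinase complex, ser3 was less reduced under starvation than in any other strain. At 60 min ser3 was at -0.92 in atg1 and -0.72 in vps15, against -3.67 ± 0.50 in the other 60 deletion strains, whose lowest, median and highest values were -4.60, -3.68 and -2.42. At 0 min it was at -0.12 in atg1 and 0.42 in vps15, against 0.05 ± 0.42 in the others, well inside their range. The change was accordingly -0.80 in atg1 and -1.14 in vps15, against -3.72 ± 0.51 in the others. On the linear scale these are decreases of 1.74-fold in atg1 and 2.21-fold in vps15. Both ser3 probes showed it: at 60 min they gave -0.95 and -0.88 in atg1 and -0.76 and -0.69 in vps15. The difference from the other strains was 2.85 at 60 min and 2.75 in the change.

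The overall response to starvation, measured by regression on those 801 genes, was 0.99 in atg1, rank 26 from the lowest of 62 strains, and 0.84 in vps15, rank 5. The part of this slope in the ser3 values was not tested.

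In the change, the glycine cleavage genes went apart between the 2 strains. In atg1 the changes were -1.20 for gcv1, -1.42 for gcv2 and -1.23 for gcv3, which ranked 4, 1 and 2 from the lowest of 62 strains. In vps15 they were -0.12 for gcv1, 0.08 for gcv2 and -0.43 for gcv3, and the gcv1 value was the highest of all strains. The probes of gcv2 and gcv3 differed in size in atg1, with changes of -1.03 and -1.81 for gcv2 and -0.76 and -1.70 for gcv3. The atg1 array at 0 min also spread more widely (SD over probes 0.50) than the median array at that time (0.35). At 0 min atg1 had the highest gcv1 level (0.90) and the second highest gcv2 level (0.49), and vps15 the second lowest gcv2 level (-0.76). At 60 min both strains lay on the same side of the mean of the others for each of the 3 genes. The gcv1 level was -0.30 in atg1, rank 11 from the highest, and -0.02 in vps15, the highest, against -0.54 ± 0.20 in the others. The gcv2 level was -0.93 in atg1 and -0.68 in vps15, against -0.45 ± 0.26, and the gcv3 level -0.86 in atg1, the lowest, and -0.32 in vps15, against -0.16 ± 0.24. For gcv2 and gcv3 both strains lay inside the range of the others or at its edge. The change of shm2 was the lowest in atg1 (-0.58) and the second lowest in vps15 (-0.32), against 0.15 ± 0.21 in the others, and atg1 had the highest shm2 level at 0 min (0.60). In both strains 1 shm2 probe carried most of this: the probes gave -0.19 and -0.97 in atg1, and -0.10 and -0.53 in vps15.

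The neighbouring pathways put the 5 genes in context. Of 76 listed genes of serine, glycine, folate, methyl, sulfur, purine and amino acid synthesis, 71 were measured. On starvation 61 of the 71 were called lower and 8 higher (adjusted p under 0.05 by limma on the change per strain, Benjamini-Hochberg over 4929 features), while 2, lip5 and fol1, were not called. Of all features 40.5% were called lower and 46.9% higher, so with 62 strains a call alone says little. The median change of the listed genes was -0.85, against 0.04 over all features. At least a 2-fold decrease was found for 29 listed genes, where 8.76% of all features had one. Of the listed genes 36 were lower in every strain, but the share of all features lower in every strain was not counted.

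In serine synthesis both later steps were lower, ser2, the phosphatase, by -1.36 ± 0.32 and ser1, the aminotransferase, by -0.51 ± 0.29 (SD, n = 62). Among genes that interconvert glycine and serine, shm1 changed by -2.57 ± 0.40, where its paralog shm2 was at 0.13 ± 0.23. The threonine aldolase gene gly1 changed by -1.35 ± 0.32 and lip2, of lipoate attachment, by -0.25 ± 0.23. The lipoamide dehydrogenase gene dld1, whose product serves glycine cleavage and other complexes, rose by 0.35 ± 0.26, and lip5, for lipoate synthesis, was at 0.04 ± 0.33 (adjusted p = 0.323).

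Among the folate carriers 4 of 6 were lower. The methylenetetrahydrofolate reductase gene met9 changed by -1.44 ± 0.31, while met11, for a second such reductase, rose by 0.58 ± 0.21. The gene ade9, for the C1-tetrahydrofolate synthase, changed by -0.96 ± 0.25 and mtd1, for a methylenetetrahydrofolate dehydrogenase, by -0.88 ± 0.27. The value of dfr1 (-0.41), for dihydrofolate reductase, averages 2 probes of opposite sign, -1.59 and 0.76, and fol1 was at 0.08 ± 0.34 (adjusted p = 0.0718). In the methyl cycle all 3 measured genes were lower: sam1, for S-adenosylmethionine synthetase, by -2.22 ± 0.47, met26, for methionine synthase, by -1.78 ± 0.44 and ado1, for adenosine kinase, by -0.09 ± 0.29.

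In sulfur assimilation 8 of 10 genes were lower and 2 higher. The gene met17, for the enzyme that joins sulfide to O-acetylhomoserine, changed by -3.30 ± 0.61, and met14, for adenylylsulfate kinase, by -2.27 ± 0.34. The genes that were higher were met6 (0.66 ± 0.33), for homoserine acetyltransferase, and cys12 (0.64 ± 0.37), for a cysteine synthase. All 9 purine genes were called lower, although the 2 ade4 probes had opposite signs (-1.04 and 0.62), with ade10, for an enzyme that takes a one-carbon unit from folate, at -1.50 ± 0.31. Of 36 other amino acid genes 32 were lower, led by lys4 (-2.83 ± 0.58), for homocitrate synthase, and ilv5 (-2.37 ± 0.40), for acetohydroxyacid reductoisomerase. The 4 higher ones were arg7 (1.17 ± 0.40) and arg12 (0.60 ± 0.32), for the last steps of arginine synthesis, trp4 (0.24 ± 0.25) and arg11 (0.19 ± 0.24). Quantile normalization turned the signs of trp4 (-0.04) and arg11 (-0.08).

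**Figure D3:**
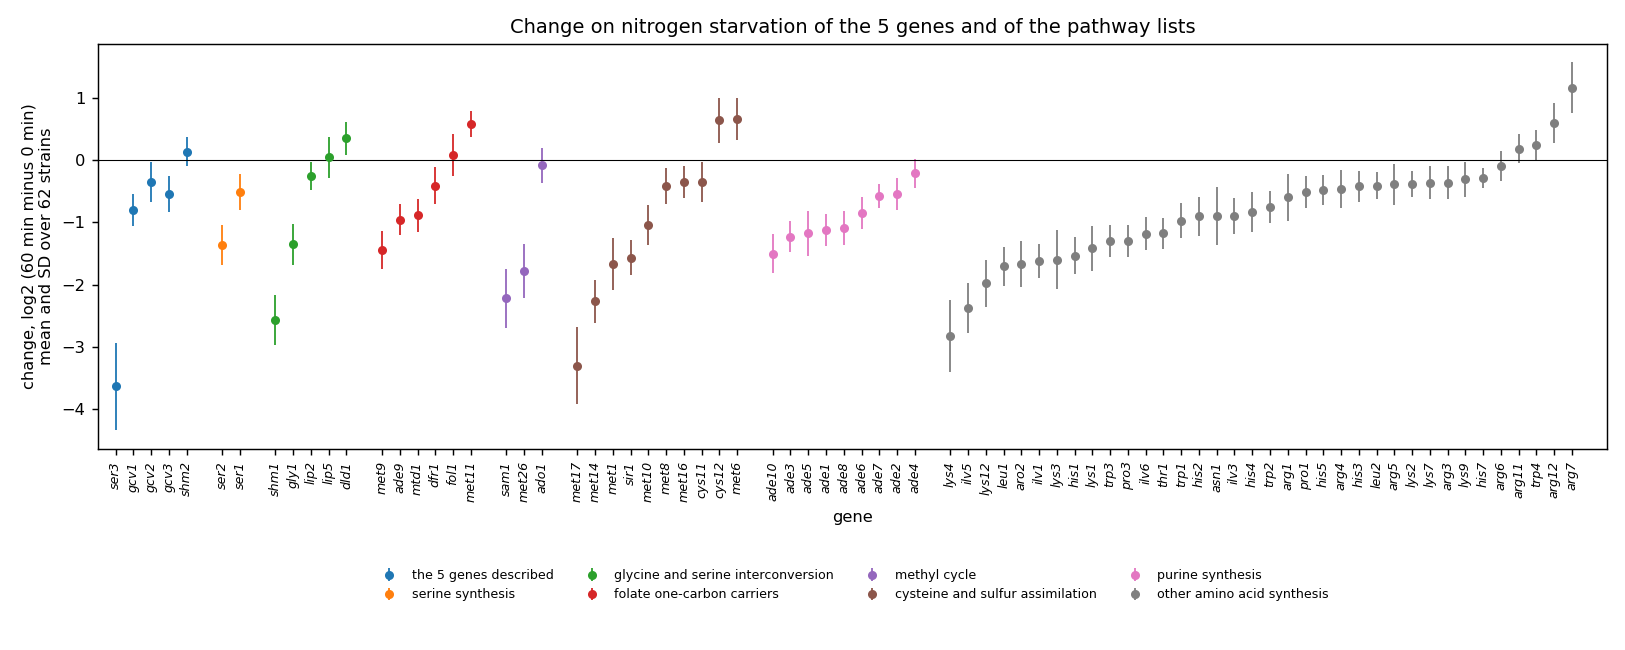
Change on starvation (log2, 60 min minus 0 min) of the 5 genes and of 71 genes in 7 pathway lists, as mean (point) and SD (bar) over 62 deletion strains. The ser3 mean (-3.63) is lower than that of any listed gene, met17 (-3.30), lys4 (-2.83) and shm1 (-2.57) come closest, and shm2 lies near 0.

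In the atg1 and vps15 strains, amino acid genes other than ser3 were also higher at 60 min. By limma over all features, 20 of the 71 listed genes were called higher than in the other 60 strains and 0 lower. Of all features 2.56% were called higher and 0.446% lower. The strain pair and the lists were chosen with earlier results of these data known. The calls and adjusted p-values for this pair, here and below, are therefore description and not an independent test. The pair also joins different deletions, not repeats of the same strain. The median difference of the listed genes was 0.31, against 0.01 over all features. The 20 genes were ser1, met26, met17, ade3, ade6, lys1, lys3, lys4, lys12, leu1, ilv1, ilv3, ilv5, ilv6, arg4, arg5, his4, trp1, trp2 and asn1. The atg1 value was above all 60 other strains for 18 of them and the vps15 value for 10. These counts follow in part from picking the genes by the call, and the share over all features was not counted. Leaving out atg1 left 6 calls, and leaving out vps15 left 13.

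The saccharopine dehydrogenase gene lys3 differed most, at 1.21 in atg1 and 0.78 in vps15, against -1.32 ± 0.28 in the others (difference 2.32, SE 0.20, adjusted p = 1.47e-13). For lys4 the levels were -0.62 in atg1 and -0.72 in vps15, against -2.69 ± 0.43 (difference 2.02, adjusted p = 1.33e-06). The asparagine synthetase gene asn1 had 0.84 in atg1 and 0.43 in vps15, against -0.76 ± 0.42 (difference 1.39, adjusted p = 0.00149). Next to ser3 in its own pathway, ser1 had 0.71 in atg1 and 0.16 in vps15, against -0.35 ± 0.28 (difference 0.79, adjusted p = 0.0124), the vps15 value being just below the highest of the others (0.16). In the methyl cycle met26 had -0.08 in atg1 and -0.53 in vps15, against -1.65 ± 0.35 (difference 1.34, adjusted p = 0.000178). In sulfur assimilation met17 had -1.14 in atg1 and -2.27 in vps15, against -3.11 ± 0.59 (difference 1.41, adjusted p = 0.0448).

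The steps nearest to the 5 genes were mostly not called. The paralog shm1 was at -2.14 in atg1 and -1.21 in vps15, against -2.34 ± 0.34 in the others (adjusted p = 0.146), with atg1 inside the spread of the others. For gly1 the levels were -0.48 in atg1 and -0.45 in vps15, against -1.07 ± 0.27 (adjusted p = 0.0679). The serine phosphatase gene ser2 was at -1.46 in atg1 and -2.10 in vps15, against -1.38 ± 0.27 (adjusted p = 0.294), on the opposite side from ser3. None of the 6 folate genes was called, with met9 at -1.40 in atg1 and -1.55 in vps15, against -1.47 ± 0.24 (adjusted p = 0.988).

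At 0 min only 2 listed genes were called, ilv5 higher (difference 0.80) and arg7 lower (-0.63), where 0.954% of all features were called higher and 0.629% lower. In the change 10 listed genes were called higher and 2 lower, where 2.41% of all features were called higher and 2.27% lower. The genes higher in the change were lys1, lys3, lys4, asn1, met26, his4, arg4, ilv1, trp1 and leu2, and those lower were ade4 and ade8. For leu2 and ade4 the 2 probes had mean changes of opposite sign over the 62 strains. Leaving out atg1 left 1 call higher in the change, leaving out vps15 left 6, and quantile normalization left 3.

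**Figure D4:**
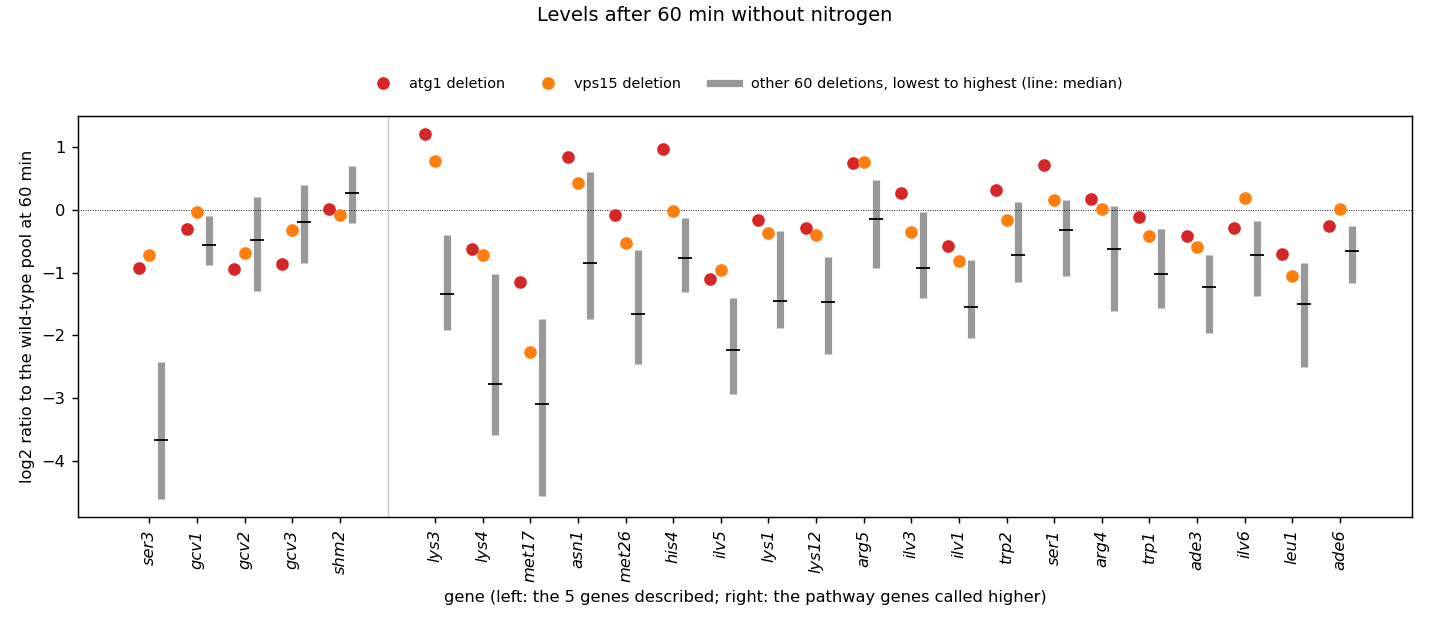
Level at 60 min without nitrogen (log2 ratio to the wild-type pool) in the atg1 strain (left point), the vps15 strain (middle point) and the other 60 deletion strains (bar from lowest to highest, with the median as a line), for the 5 genes and for the 20 pathway genes called higher. For ser3 both strains lie above the bar, which ends at -2.42, and for lys3 both lie above 0 while the others end at -0.39.

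The eIF2 alpha kinases, Gcn2 and Hri1, were compared because Gcn2 is the kinase of the response to amino acid shortage. At 60 min ser3 was at -2.96 in gcn2 and -3.68 in the strain labelled hri1, with a mean of -3.32, against -3.59 in the other 60 strains. These 60 include atg1 (-0.92) and vps15 (-0.72), which raise the mean and the spread of ser3. The difference was 0.27, with an interval of -0.70 to 1.24 (1.96 SE either side). The difference in the change was -0.01, with an interval of -0.97 to 0.95. By limma 0 of the 5 genes were called at 60 min, at 0 min or in the change, and 0 had an unadjusted p under 0.05. Of all features 0.00% were called at each, and 9.54% at 60 min, 6.63% at 0 min and 1.44% in the change had an unadjusted p under 0.05. The hri1 transcript was not low in the strain labelled hri1, so the mean may describe 1 deletion.

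The AGC kinases linked to TOR, Gad8, Sck2 and Psk1, gave no call either. At 60 min ser3 was at -2.98 in gad8, -3.19 in sck2 and -3.88 in psk1, with a mean of -3.35, against -3.59 in the other 59 strains. These 59 also include atg1 and vps15. The difference was 0.24, with an interval of -0.55 to 1.04. The difference in the change was 0.28, with an interval of -0.51 to 1.07. By limma 0 of the 5 genes were called at any of the 3 measures, where 0.00% of all features were called at 60 min and in the change and 0.0203% at 0 min. At an unadjusted p under 0.05 there was 1 of the 5 genes at 60 min, where 1.50% of all features passed, 0 at 0 min, where 1.14% passed, and 1 in the change, where 2.39% passed. These were shm2 at 60 min (difference 0.24, p = 0.0333 and adjusted p = 0.999) and gcv3 in the change (difference 0.37, p = 0.0290, adjusted p = 1.00), both by limma. The gad8 strain had the highest gcv2 level of all strains at 60 min (0.21).

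The genes whose pattern over the 62 strains was most like that of ser3 differed between the times. At 60 min they were lys3 (Pearson correlation 0.77), the biotin transporter gene vht1 (0.76), aca1 (0.72), the ammonium transporter gene amt2 (0.72) and the invertase gene inv1 (0.72). Without atg1 and vps15, the 2 strains farthest from the median of ser3, the same genes were at 0.45 for lys3, 0.50 for vht1, 0.36 for aca1, 0.65 for amt2 and 0.42 for inv1. For lys3, vht1, aca1 and inv1 the likeness thus rests largely on these 2 strains, and the Spearman correlations, 0.51 for lys3, 0.57 for vht1, 0.39 for aca1, 0.72 for amt2 and 0.34 for inv1, were highest for amt2. The level of inv1 at 60 min was 4.40 in atg1 and 2.75 in vps15, against a mean over all 62 strains of 0.39 ± 0.79. That of aca1 was 3.73 in atg1 and 2.82 in vps15, against a mean over all 62 strains of -0.16 ± 0.79.

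For the change of ser3 the nearest genes were vht1 (0.76), lys3 (0.69), amt2 (0.66), lrs1 (0.66) and asn1 (0.66), and without atg1 and vps15 they were at 0.52 for vht1, 0.35 for lys3, 0.61 for amt2, 0.55 for lrs1 and 0.52 for asn1. At 0 min the nearest were SPCC191.03C (0.79), SPAPB2C8.01 (0.77), SPCC1672.11C (0.75), lcf1 (0.75) and efr3 (0.75), which kept 0.79, 0.77, 0.75, 0.74 and 0.75 without atg1 and vps15. Leaving out cyr1 and ppk18, the strains at the ends of the ser3 range at 0 min, gave 0.72 for SPCC191.03C.

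For the mean of gcv1, gcv2 and gcv3 the nearest genes at 0 min were SPAC8E11.10 (0.72), tda1 (0.71), the purine gene ade8 (0.69), gly1 (0.67) and ppt1 (0.67). At 60 min they were rip1, of respiratory complex III (0.57), kei1 (0.57), ala1 (0.57), yhm2 (0.56) and cbl1 (0.55). In the change they were SPAC57A10.07 (0.68), gdt2 (0.67), osh42 (0.67), the adenylate kinase gene adk1 (0.66) and srm1 (0.66). These neighbour lists were not stable. With Spearman correlation, without cyr1, cgs1 and rst2, or without atg1 and vps15, 1 to 2 of the 5 genes were shared at 60 min, 3 in the change and 2 to 4 at 0 min. For ser3 the shared genes numbered 1 to 3 at 60 min, 1 to 4 in the change and 1 to 4 at 0 min.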

How the data were processed

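The values are the authors' deposited table of linear ratios, 1 per probe and array (9858 probes, 127 arrays). Per the labels, Cy5 was the strain and Cy3 a pool of wild type. The labels name no background correction or scaling step. Across arrays the median ratio ran from 0.932 to 1.093. The ratios were taken to log2, with 6 zeros set missing, centred on each array's median, and the 2 probes of a gene averaged. Of the probes, 9632 had 1 gene symbol, 44 several and 182 none, which gave 4929 features, 113 of them unnamed.

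The change per strain (60 min minus 0 min, with the strain as the pair, since both arrays carry the same genotype) was tested against 0, and sets of strains were compared with the other deletion strains, by limma 3.58.1 in R 4.3.3 with Benjamini-Hochberg adjustment over all features (called at adjusted p under 0.05, with a 2-fold change where stated). The procedure was tested on simulated data with independent noise for each gene and strain, whereas the genes of a real array share its error. Arrays carry no read depth, so their number limits the precision, and nothing in the labels says that strains were grown as separate repeat cultures. Named were the 5 genes, every gene of the smaller pathway lists, the leading or called genes of the larger ones, and the 5 genes with the highest Pearson correlation to ser3 or to the glycine cleavage mean. The 5 genes, the lists and the strain sets were chosen with earlier results of these data known. Other scalings, single probes, subsets of strains and array runs were tried as alternatives. Figures were drawn with matplotlib 3.10.9.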

Additional observations from a re-analysis of the deposited data

Results flagged for a closer look

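For 12 of the 71 pathway genes the change on starvation differed between the atg1 and vps15 strains and the other 60 deletion strains in a limma test of the difference itself (adjusted p under 0.05). In lysine synthesis, lys4 changed by -0.50 in atg1 and -1.18 in vps15, against -2.89 ± 0.45 in the others, a difference of 2.06. For lys3 the changes were 0.74 in atg1 and -0.06 in vps15, against -1.66 ± 0.30, a difference of 2.004. For lys1 they were -0.16 in atg1 and -0.61 in vps15, against -1.45 ± 0.31, a difference of 1.06. In the 3 genes both strains lay above all 60 others. All 12 genes were picked by this test, with lists and a strain pair chosen with earlier results of these data known. Of the 12, 10 were called higher and 2 lower, where 2.41% of all features were called higher and 2.27% lower. Quantile normalization left 3 calls higher.

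The asparagine synthetase gene asn1 changed by 0.44 in atg1 and 0.14 in vps15, against -0.94 ± 0.42, a difference of 1.23. The methionine synthase gene met26 changed by -0.90 in atg1 and -0.87 in vps15, against -1.81 ± 0.41, a difference of 0.93. For his4 the changes were 0.60 in atg1 and -0.57 in vps15, against -0.85 ± 0.26, a difference of 0.87, with atg1 above all other strains and vps15 above 52 of 60. Smaller differences were 0.78 for arg4, 0.68 for ilv1 and 0.65 for trp1. The difference of leu2 was 0.47 (adjusted p = 0.0498), and -0.093 by its second probe alone.

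Of 9 purine genes 2, ade8 and ade4, changed more in these strains, and the other 7 were not called. Changes of ade8 were -2.08 in atg1 and -1.25 in vps15, against -1.07 ± 0.24, a difference of -0.60, and those of ade4 were -1.01 in atg1 and -0.40 in vps15, against -0.19 ± 0.21, a difference of -0.51 (adjusted p = 0.04996). For both genes atg1 lay below all 60 others, while vps15 lay inside their range. Without atg1 the differences were -0.18 for ade8 and -0.21 for ade4, and the 2 ade4 probes had mean changes of opposite sign.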

How the results depend on the processing

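The change of ser3 ran from -4.16 to -2.95 over the alternatives tried (scaling, single probes, subsets of strains, array runs). Without the strain as replicate block it was -3.63, the same by construction, because the same 62 strains entered at both times. At 2-fold 803 genes were called in both fits. Without atg1 and vps15, an alternative chosen after seeing the data, the ser3 change was -3.72. Quantile normalization gave 478 such genes (803 as reported). The lower pathway genes numbered 38 within the third array run (61 as reported), and the higher ones 14 by the second probe alone and 1 within that run (8 as reported). The ser3 difference in atg1 and vps15 was 2.30 at 60 min and 2.22 in the change under quantile normalization. Without vps15 the gcv1 difference in the change was -0.40 (0.14 with both). The gcv2 difference (-0.33) was 0.025 under quantile normalization and 0.42 without atg1, and that of gcv3 (-0.30) was 0.12 and 0.095 under the same settings.

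Genes called in atg1 and vps15 at 0 min (78) were 51 without centring, 0 under quantile normalization, 44 by the second probe, 179 without the non-kinase deletions and 17 to 43 leaving out either strain. At 60 min (148) they were 60 to 106 leaving out either strain, and in the change (231) 29 under quantile normalization and 17 to 240 leaving out either strain. Pathway genes called higher were 6 to 13 at 60 min leaving out either strain (20 with both), and in the change (10) 3 under quantile normalization, 6 by the second probe and 1 to 6 leaving out either strain. For gcn2 and hri1 (0 genes each) the counts at 0 min were 1 under quantile normalization, the second probe, no non-kinase deletions or the array run as block, and leaving out a strain gave 0 to 1 at 0 min, 1 to 13 at 60 min and 0 to 3 in the change. For gad8, sck2 and psk1, leaving out a strain gave 0 to 3 at 0 min (1 as reported), 1 to 2 at 60 min and 0 to 1 in the change (0 as reported for both). At 60 min they were 1 under quantile normalization or the second probe and 2 without non-kinase deletions or with the array run as block. None of the 5 genes was called for these 2 sets under any alternative run.

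Starvation changes that turned sign were ade4 (0.62), dfr1 (0.76), leu2 (0.14) and lys2 (0.41) by the second probe, arg6 (0.033) and lip5 (-0.17) by the first, arg11 (-0.081) and trp4 (-0.038) under quantile normalization, ado1 within the second run (0.12) and the third (0.011), and fol1 within the second (-0.12). The leu2 difference in atg1 and vps15 was -0.093 by the second probe. Probes of opposite sign account for those by single probes. For the others the cause was not tested.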

Other observations

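The hal4 strain had an array at 0 min only and entered no comparison. Its ser3 level was 0.47, above 52 of the 62 other deletion strains. The other genes were low there: gcv1 at 0.00, gcv2 at -0.51, gcv3 at 0.04 and shm2 at -0.26, with 9 strains below it for gcv1, 4 for gcv2, 6 for gcv3 and 3 for shm2.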
